A study of Homo sapiens with 6 samples.

Results

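The 6 libraries of a THP1 RNA sequencing study were compared here by the replicate number in their titles: 3 libraries numbered 2 against 3 numbered 1, out of 6 in all. THP1 is a human cell line established from an acute monocytic leukaemia. Each number holds 1 library of each labelled group: shCtrl, the hairpin control with a genotype given as wild-type; shALKBH5, with a genotype given as ALKBH5 knock-down; and ALKBH5 rescue, so named in the labels. The measured level of ALKBH5 goes against these group labels, as given below, and they are used here as names only. The labels do not say what the number stands for, whether the numbers came from separate cultures, days or clones, or which hairpin and rescue constructs were used. The members come from the titles, but the split was selected on measured values: it was chosen by the levels of ALKBH5, SPP1, OAS3 and IFIT2, which part along it. Every value below is therefore a description of these 6 libraries, and no difference between the numbers is offered as a test. A gene is termed called where edgeR's quasi-likelihood fit, with group as a covariate, gave an adjusted value below 0.05 over all 14161 genes tested. A call says that the difference was larger than the spread left between these libraries, which may be technical, and it supports nothing beyond that.

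ALKBH5 is a dioxygenase that removes N6-methyladenosine (m6A), a methyl mark on adenosines of messenger RNA that is written by the METTL3 and METTL14 complex and read by YTH-domain proteins. Monocytic cells such as THP1 carry sensors of foreign RNA, and when type I interferon binds its receptor, JAK kinases pass the signal on and a large set of antiviral genes is switched on. Introns are removed from nearly all messenger RNAs by the major spliceosome, while the small class of U12-type introns needs a separate minor spliceosome.

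The libraries held 14534386 to 24857373 estimated counts, and the range of the libraries numbered 1 (14534386 to 24857373) enclosed that of the libraries numbered 2 (16150754 to 19477197). The difference between transcript length and effective length, which reflects the fragment length used in quantification, was 249.0 to 254.4 bases in all 6. The first principal component of log2 CPM (counts scaled to the size of the library) held 68% of the variance and separated the numbers, with -38.1 to -31.3 in number 1 and 27.9 to 39 in number 2. The second held 12.5% and placed the library labelled shCtrl replicate 2 farthest out, at 24.2. Of 15 monocytic line markers all 15 were tested, 7 were called higher and 4 lower in number 2 (3 and 2 with a library labelled shALKBH5 left out), and their summed level was 4492.2 to 4752.2 TPM in number 1 and 5571.5 to 5840.4 TPM in number 2. Over all genes tested 23.4% were called higher and 23.1% lower. Single markers went in both directions. CD14, the monocyte co-receptor for lipopolysaccharide, was at 210.4 to 238.9 CPM in number 1 and at 131.1 to 144.9 CPM in number 2. CYBB, another marker of the list, was at 172.6 to 201.1 CPM in number 1 and at 306.4 to 347.0 CPM in number 2.

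ALKBH5 showed the widest difference of any called gene with a mean of at least 5 CPM. With groups ordered as shCtrl, shALKBH5 and ALKBH5 rescue, as in every list of 3 values below, number 1 had 14.6, 12.4 and 13.6 CPM and number 2 had 1096.9, 1003.3 and 967.9 CPM. The targeted gene was thus low in every library numbered 1 and high in every library numbered 2, whatever the group label, and the shCtrl label did not mark a high level nor the shALKBH5 label a low one. The means were 13.5 ± 1.11 and 1022.7 ± 66.7 CPM (SD, n = 3 each), a 75.6-fold difference, and the log2 difference was 6.22, 6.33 and 6.15 in the shCtrl, shALKBH5 and ALKBH5 rescue pairs. The gene (ENSG00000091542.8) lies on the plus strand of chromosome 17, from 18183078 to 18209954 in GRCh38.

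The difference lay in 1 transcript of ALKBH5. ALKBH5-201, the protein-coding form of 2748 bases, held 190, 198 and 277 estimated counts in the libraries labelled shCtrl, shALKBH5 and ALKBH5 rescue replicate 1, and 20605, 19109 and 15732 in those of replicate 2. The retained-intron form ALKBH5-202 went the other way, with 7, 19 and 35 counts in number 1 and 3, 1 and 1 in number 2. Its share of the gene's TPM was 4.36% to 14.2% in number 1 and at most 0.0177% in number 2. These counts are few, and kallisto divides reads between the forms by estimate.

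Neighbours of ALKBH5 had small differences beside its own. Within 1 Mb on either side 34 genes were tested, 3 were called higher, 4 lower and 27 were not called, with a median log2 difference of 0.01; over all genes 23.4% were called higher and 23.1% lower. GID4, a substrate receptor of a ubiquitin ligase, was at 1.78, SREBF1, the sterol-regulated transcription factor gene, at 0.80, and DRG2, which encodes a GTP-binding protein, at -1.05. Over the genome, medians by chromosome ran from -0.08 to 0.14, with chromosome 13 at the upper end.

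Across all genes, 6578 of 14161 were called (46.5%), 3311 higher in number 2 (23.4%) and 3267 lower (23.1%). A size under 1.5-fold was found for 51.1% of the called genes, and 1086 (7.67% of genes tested) were called with at least 2-fold, 559 higher and 527 lower. At 4-fold or more, 44 were higher and 84 lower. All 3 pairs had the same sign in 9651 genes (68.2%), and the values of the 2 numbers did not overlap in 8270 (58.4%). Leaving out the library labelled shALKBH5 replicate 1 or, separately, replicate 2 reduced the calls to 3990 and 3979. Counts of 5 or more list members that then differ by over 1.5 times are given below, as counts with a shALKBH5 library left out; where 1 value is given, both give it. Smaller counts also moved, by 1 to 3 members, and are less certain. The 3 pairs have no library in common. Across 14161 genes their log2 differences correlated at r = 0.72 between the shALKBH5 and shCtrl pairs, 0.75 between ALKBH5 rescue and shALKBH5 and 0.63 between ALKBH5 rescue and shCtrl, and genes are not independent replicates.

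After ALKBH5, the widest upward difference among the protein-coding genes named by size was that of RNASE6. RNASE6, an antimicrobial ribonuclease of myeloid cells, was at 1.45, 1.54 and 2.08 CPM in number 1 and at 11.7, 8.19 and 9.47 CPM in number 2 (log2 difference 2.49, SE 0.20). FADS2, the delta-6 fatty acid desaturase, was at 38.3 to 41.5 CPM in number 1 and at 176.8 to 203.1 CPM in number 2 (2.22, SE 0.08). PSIP1, which encodes the chromatin factor LEDGF that tethers MLL fusion proteins to chromatin, was at 31.1, 28.5 and 18.4 CPM against 66.1, 113.8 and 117.8 CPM (1.93, SE 0.23), so its difference was smallest in the shCtrl pair. The remaining protein-coding genes of the upper 12 were IFIT2, CXCL10, OAS3, NEURL1B, VIT, FBXO43, GAPT and ZMAT1, at 1.94 to 2.37.

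SPP1 was among the genes with the widest differences downward. It encodes osteopontin, a secreted ligand of integrins and CD44. It was at 236.2, 234.7 and 263.8 CPM in number 1 and at 31.2, 27.4 and 25.4 CPM in number 2, an 8.75-fold difference. Of 7 osteopontin receptor genes tested 2 were called lower, ITGA5 at -0.84 (SE 0.08) and CD44 at -0.41 (SE 0.08), and 0 higher, against 23.1% and 23.4% over all genes. CTTN, which encodes the actin-binding protein cortactin, was at 24.5 to 26.0 CPM in number 1 and at 2.78 to 3.62 CPM in number 2 (-2.98, SE 0.14). CEACAM6, a cell adhesion molecule of granulocytes, was at 17.4 to 18.0 CPM against 2.40 to 2.78 CPM (-2.80, SE 0.15). CCR7, the receptor that guides leukocytes to lymph nodes, was at 9.60 to 10.4 CPM against 1.47 to 2.66 CPM (-2.28, SE 0.19), and TGM2, tissue transglutaminase, at 6.80 to 9.89 CPM against 1.63 to 2.15 CPM (-2.25, SE 0.19). FCRLA, DSE, RGS16, ABTB2, ADAMTS15 and BICDL1 lay between -2.58 and -2.22. The histone gene HIST2H2AA3 had the lowest value of the rule, -3.22 (SE 0.57), but it has a near-identical copy, HIST2H2AA4, at 0.97 (SE 0.13), and the division of reads between them is uncertain. Lack of overlap between the numbers was a condition for naming the genes of widest difference, so it is not a result.

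**Figure D1:**
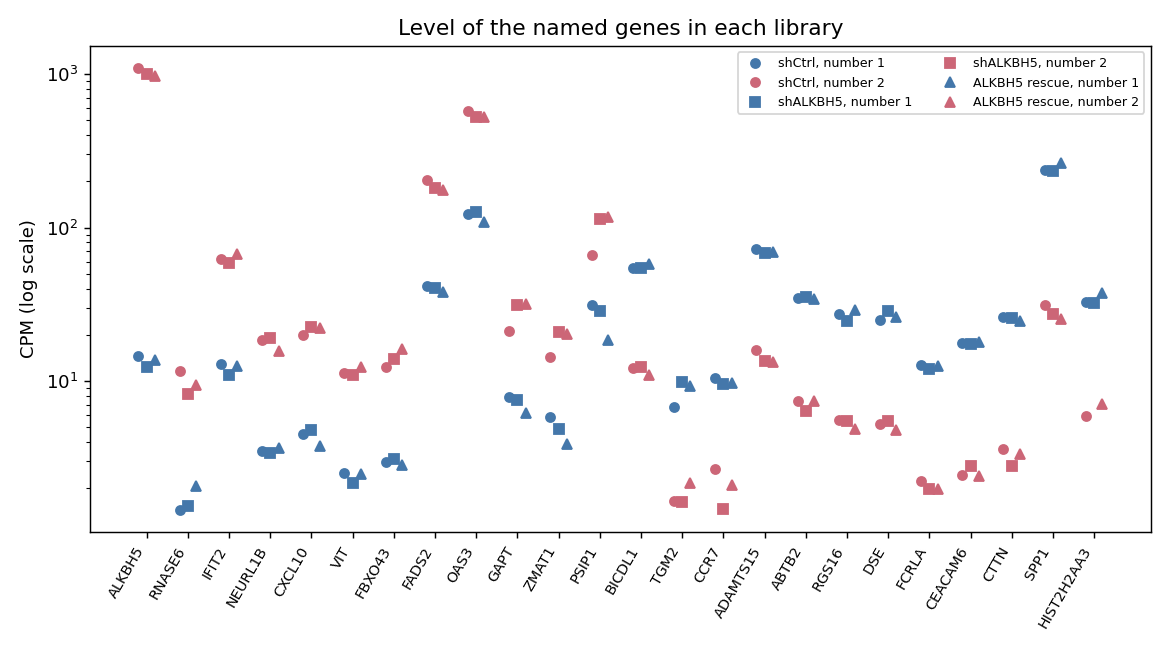
CPM on a log axis for ALKBH5 and the other genes with the widest differences, 1 point per library, with groups by shape and numbers by colour. The genes were picked to have no overlap between the numbers; the plot shows the size of the gap, 12.4 to 14.6 against 967.9 to 1096.9 CPM for ALKBH5, and the 0 of HIST2H2AA3 in the library labelled shALKBH5 replicate 2 cannot be drawn on this axis.

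Interferon-stimulated genes were higher in the libraries numbered 2. Of 39 interferon-stimulated effector genes tested 31 were called higher and 1 lower, against 23.4% and 23.1% over all genes, and their median log2 difference was 0.86 where that of all genes was 0.01. Of 15 OAS genes and sensors of double-stranded RNA 11 were called higher and 0 lower, with a median of 0.91. The split was chosen by IFIT2 and OAS3, which these lists hold; without them the counts were 30 of 38 higher and 1 lower (median 0.86) and 10 of 14 higher and 0 lower (median 0.85). The effectors were higher in each pair, with medians of 0.84, 0.89 and 1.01 in the shCtrl, shALKBH5 and ALKBH5 rescue pairs. IFIT2, IFIT3 and IFIT1, relatives that bind foreign RNA and block its translation, were the leading effectors. IFIT2 was at 12.9, 10.9 and 12.6 CPM in number 1 and at 62.0, 58.5 and 67.2 CPM in number 2. IFIT3 was at 22.5 to 26.8 CPM against 85.6 to 94.2 CPM (1.85, SE 0.10), and IFIT1 at 14.5 to 15.9 CPM against 51.4 to 52.6 CPM (1.78, SE 0.10). The libraries of each number were close to each other and far from the other number.

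OAS3, a synthetase of the 2-5A messenger that activates RNase L, was at 122.5, 126.6 and 109.5 CPM in number 1 and at 573.1, 522.2 and 529.3 CPM in number 2. OAS1 was at 1.62 (SE 0.10), and the RNA helicase sensors DDX58, which encodes RIG-I, and DHX58 at 1.26 (SE 0.16) and 1.01 (SE 0.12). CXCL10, an interferon-induced chemokine that attracts T cells, was at 3.78 to 4.8 CPM in number 1 and at 20 to 22.6 CPM in number 2. Of 21 interferon signalling genes 7 were called higher and 4 lower, with a median of 0.13; with a shALKBH5 library left out, 4 were higher and 2 lower. With all libraries the shares of this list were 33.3% higher and 19.0% lower, against 23.4% and 23.1% over all genes. STAT2, a transcription factor of the interferon response, was at 116.6 to 122.2 CPM against 206.5 to 239.2 CPM (0.89, SE 0.08). IRF8, a transcription factor of the monocyte lineage, was lower, at 538.9 to 575.4 CPM against 362.0 to 389.9 CPM (-0.56, SE 0.08). Class I antigen presentation genes were called higher in 2 of 13 and lower in 2 (15.4% each), below the shares over all genes. Among them ERAP1, the peptide-trimming aminopeptidase, was at 1.24 (SE 0.08) and the transactivator NLRC5 at -0.46 (SE 0.08).

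Promoters of 4 genes are shown because members of this group were higher together. They were taken from called members whose promoter holds the element described below before the start. Its presence in all 4 is therefore not a result. IFIT2, DDX58, OAS2 and other called members had no promoter in the set used. The stretches are of 70 bases each, from RefSeq's GRCh38.p14 promoter table, and lie before the start that RefSeq annotates for OAS3 (chr12:112938301-112938370), IFIT3 (chr10:89327811-89327880), IFIT1 (chr10:89392477-89392546) and IFIT5 (chr10:89414493-89414562), all on the plus strand. The GENCODE start of OAS3, 112938352, lies within the stretch shown. Capitals mark letters of the interferon-stimulated response element, searched as GAAANNGAAA on both strands.
OAS3: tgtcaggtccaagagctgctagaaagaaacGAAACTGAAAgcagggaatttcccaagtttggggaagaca
IFIT3: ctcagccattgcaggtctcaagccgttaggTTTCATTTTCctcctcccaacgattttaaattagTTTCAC
IFIT1: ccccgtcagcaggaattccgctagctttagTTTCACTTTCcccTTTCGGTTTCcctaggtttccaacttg
IFIT5: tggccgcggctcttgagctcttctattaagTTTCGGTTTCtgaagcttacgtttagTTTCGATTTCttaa
The element was found in 22 of the 32 effector genes with a promoter in the table and in 5 of 9 genes of the OAS and sensor list (1 or more matches between 250 bases before and 50 after the start), against 3.65% of 27195 promoters of the same length. A match is a run of letters and was not examined as a binding site. The whole lists were counted, called members or not. These shares therefore use no value of these libraries and are not a result about them.

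Cell-cycle genes were higher in number 2, those of mitosis more uniformly than those of DNA replication. Of 44 G2/M and mitosis genes 33 were called higher and 0 lower (median 0.46), and of 46 G1/S and DNA replication genes 24 higher and 3 lower (median 0.30). Shares called higher were 75.0% and 52.2%, against 23.4% over all genes, of which 23.1% were called lower. TOP2A, the topoisomerase that untangles sister chromosomes, was at 168.5, 172.9 and 150.3 CPM in number 1 and at 384.6, 514.2 and 573.7 CPM in number 2 (1.57, SE 0.13). CDK1, the kinase that starts mitosis, was at 29.3, 43.7 and 24.5 CPM against 39.8, 83.7 and 95.1 CPM (1.12, SE 0.22), so the lowest library of number 2 lay below the highest of number 1. CKAP2L and PLK4, of the spindle and centriole, were at 1.29 (SE 0.15) and 1.13 (SE 0.17). In all 4 the library labelled shCtrl replicate 2 was the lowest of number 2. Cyclin genes divided. CCNE1, the cyclin of S-phase entry, was at 8.80 to 11.2 CPM against 24.2 to 25.1 CPM (1.30, SE 0.13) and its kinase CDK2 at 29.3 to 40.1 CPM against 84.7 to 94.3 CPM (1.34, SE 0.12), while CCND1, cyclin D1, was lower at 35.3 to 37.7 CPM against 13.8 to 15.4 CPM (-1.33, SE 0.11). With a shALKBH5 library left out, 20 G2/M and 15 G1/S genes were called higher. The letters TTTGAA of the cell cycle homology region were found in 25 of 37 G2/M promoters and in 15.4% of all. Members were counted whether called or not, so this share is not a result about these libraries.

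Genes that make ribosomes were lower in number 2, from nucleolar assembly to the ribosomal proteins of cytosol and mitochondrion. Of 43 ribosome biogenesis and nucleolar genes 34 were called lower and 2 higher (median -0.62). Of 79 cytosolic ribosomal protein genes 57 were lower and 1 higher (-0.41), and of 75 mitochondrial ribosomal protein genes 54 lower and 2 higher (-0.46). Shares called lower were 79.1%, 72.2% and 72.0%, against 23.1% over all genes, of which 23.4% were called higher. The summed level of the biogenesis genes was 5856.3 to 5897.6 TPM in number 1 and 4168.9 to 4213.7 TPM in number 2. Their medians were -0.63, -0.68 and -0.69 in the shCtrl, shALKBH5 and ALKBH5 rescue pairs, while those of the cytosolic ribosomal proteins were more unequal at -0.25, -0.34 and -0.64. NOP2, a ribosomal RNA methyltransferase, was at 68.4, 69.0 and 73.2 CPM in number 1 and at 33.4, 30.1 and 32.1 CPM in number 2 (-1.14, SE 0.09). PPAN, MRTO4 and RRP1, nucleolar assembly factors, were at -1.21, -1.11 and -1.08 (SE 0.09 each).

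RPL18, a protein of the large cytosolic subunit, was at 499.6 to 613.1 CPM against 318.6 to 348.0 CPM (-0.73, SE 0.09), and RPL6 at 791.1 to 976.4 CPM against 507.4 to 579.5 CPM (-0.71, SE 0.10). RPL9 had the lowest value, -1.51 (SE 0.11). Ribosomal protein genes have many processed copies, so counts of single members are uncertain. MRPL2, of the large mitochondrial subunit, was at 80.4 to 85.9 CPM against 37.7 to 42.8 CPM (-1.07, SE 0.09). Translation factors were called lower in 22 of 45 and higher in 2 (median -0.25), against 23.1% and 23.4% over all genes. EIF4A1, the helicase of initiation, was at -0.80 (SE 0.09). With a shALKBH5 library left out, 13 (without replicate 1) or 12 (without replicate 2) translation factors were called lower. MYC, a driver of ribosome production in many cells, was at 181.3 to 206.1 CPM in number 1 and at 121.0 to 131.0 CPM in number 2 (-0.59, SE 0.09).

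Nuclear genes of the respiratory chain were more often lower. Of 74 nuclear subunit genes 42 were called lower and 3 higher (median -0.30), with UQCRH of complex III at 298.0 to 334.1 CPM against 139.1 to 167.3 CPM (-1.05, SE 0.10) and ATP5F1A of ATP synthase at 718.2 to 803.2 CPM against 410.0 to 476.6 CPM (-0.79, SE 0.09). NDUFA7 of complex I was higher (1.07, SE 0.15). The count of nuclear subunits called lower was 22 with a shALKBH5 library left out. Of 13 protein genes encoded in mitochondrial DNA 0 were called in either direction by edgeR (median 0.03), with 1 below an unadjusted 0.05, 1 called lower by DESeq2 and 0 by limma-voom. Their pair medians were 0.36, -0.06 and -0.34, so the pairs had no common direction: 3 were called higher without either library of ALKBH5 rescue in turn, 2 lower without the library labelled shCtrl replicate 1 and 3 lower without shCtrl replicate 2. MT-CYB, cytochrome b, was at 1466.1, 1554.8 and 1805.9 CPM against 1925.4, 1764.2 and 1750.7 CPM. In the citric acid cycle 3 of 16 were called higher and 4 lower, shares near those of all genes (23.4% and 23.1%), with MDH2, malate dehydrogenase, at 83.8 to 90.4 CPM against 235.1 to 274.9 CPM (1.53, SE 0.09) and IDH3A, of the NAD-dependent isocitrate dehydrogenase, at -0.92 (SE 0.09).

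Stress programmes divided as well. Of 26 targets of ATF4, the transcription factor of the integrated stress response, 17 were called higher and 3 lower (median 0.37). Their shares were 65.4% higher and 11.5% lower, against 23.4% and 23.1% over all genes. SESN2, a sensor that restrains mTORC1, was at 11.7 to 13.2 CPM in number 1 and at 40.5 to 46.3 CPM in number 2 (1.79, SE 0.12). CHAC1, which degrades glutathione, was at 6.46 to 7.96 CPM against 23.6 to 28.5 CPM (1.82, SE 0.13), and PHGDH, the entry enzyme of serine synthesis, at 60 to 62.4 CPM against 145.5 to 162.8 CPM (1.31, SE 0.09). Without the library labelled shALKBH5 replicate 1, 11 members were called higher. The letters TGATGNAA of the ATF4 element were found in 4 of 21 promoters of the list and in 3.67% of all. Here too members were counted whether called or not, so the share is not a result about these libraries.

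Genes of the antioxidant factor NRF2 and of glutathione were called lower in 15 of 26 and higher in 2 (median -0.42). NQO1, a quinone reductase, was at 182.6, 174.7 and 207.4 CPM in number 1 and at 64.8, 60.1 and 59.4 CPM in number 2 (-1.61, SE 0.09). PGD, of the pentose phosphate pathway, was at 649.8 to 675.2 CPM against 201.0 to 236.8 CPM (-1.61, SE 0.09), and HMOX1, haem oxygenase, at 124.5 to 139.2 CPM against 58.5 to 63.3 CPM (-1.12, SE 0.09). Heat shock proteins and chaperones were called lower in 15 of 29 and higher in 1 (median -0.31). HSP90AB1 was at 3952.2 to 4490.5 CPM against 2565.9 to 2802.9 CPM (-0.66, SE 0.10), and HSPB1, a small heat shock protein, at -0.96 (SE 0.10). Proteasome subunits were called lower in 14 of 31 and higher in 1 (median -0.22). Shares called lower in the NRF2, chaperone and proteasome lists were 57.7%, 51.7% and 45.2%. Over all genes 23.1% were called lower and 23.4% higher. With a shALKBH5 library left out, 9 chaperone and 7 proteasome genes were called lower.

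Lipid synthesis genes were more often called higher than lower. Of 24 sterol synthesis genes 12 were called higher and 4 lower (median 0.27), and of 14 fatty acid synthesis genes 7 higher and 2 lower (0.29). INSIG1, the sterol-sensing retention protein of the endoplasmic reticulum, was at 110.0 to 113.7 CPM in number 1 and at 220.7 to 249.4 CPM in number 2 (1.07, SE 0.08). HMGCS1, of the mevalonate pathway, was at 1.09 (SE 0.11) and FADS1, the delta-5 desaturase, at 1.28 (SE 0.08). Of the sterol genes 6 were called higher and 1 lower with a shALKBH5 library left out.

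Lists of inflammatory genes had medians of either sign. Of 24 monocyte chemokine and cytokine genes 6 were called higher and 11 lower (median -0.30); 4 were called higher without any 1 of the shCtrl or shALKBH5 libraries. IL1B, the inflammasome-processed cytokine, was at 667.5, 665.1 and 709.9 CPM in number 1 and at 283.0, 251.4 and 249.4 CPM in number 2 (-1.38, SE 0.09). IL6 was at 11.9 to 12.7 CPM against 3.75 to 5.35 CPM (-1.39, SE 0.15), and CCL20, a chemokine for CCR6-bearing cells, at 7.03 to 9.84 CPM against 2.05 to 2.98 CPM (-1.79, SE 0.17). Of 17 NF-kB factors and inhibitors 7 were called higher and 3 lower (median 0.19). TRAF1, an NF-kB-induced signalling adaptor, was at -1.32 (SE 0.11), while BIRC3, of the same list, was at 1.11 (SE 0.18). Toll-like receptors and adaptors were called higher in 8 of 18 and lower in 4 (median 0.33). TLR6, a co-receptor for bacterial lipopeptides, was at 1.59 (SE 0.14) and TLR5, the flagellin receptor, at -1.63 (SE 0.28). The share called lower was 45.8% in the chemokine and cytokine list, against 23.1% over all genes. Shares called higher were 41.2% in the NF-kB list and 44.4% in the toll-like receptor list, against 23.4% over all genes. In each list the share in the other direction was near or below that of all genes.

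Maturation markers of monocytes and macrophages were called higher in 8 of 30 and lower in 10 (median -0.06), against 23.4% and 23.1% of all genes. Without the library labelled shCtrl replicate 2, 5 were called higher, and with a shALKBH5 library left out, 4. SIGLEC1, a macrophage sialic acid receptor that responds to interferon, was at 82.0 to 87.8 CPM in number 1 and at 263.6 to 286.4 CPM in number 2 (1.70, SE 0.08), and MSR1, the scavenger receptor, at 8.03 to 8.97 CPM against 2.50 to 3.26 CPM (-1.54, SE 0.17). Primary granule proteins were called higher in 7 of 12 and lower in 2, with the protease gene CTSG at 57.2 to 67.3 CPM against 23.3 to 31.8 CPM (-1.13, SE 0.13) and CFD, complement factor D, at 0.60 (SE 0.09). With a shALKBH5 library left out, 4 granule genes were called higher. The actin-bundling gene LCP1, L-plastin, was at 1519.8 to 1735.2 CPM against 549.9 to 570.6 CPM (-1.54, SE 0.09). Members of the BCL2 family were called lower in 9 of 15 and higher in 2, with BCL2A1 at -1.19 (SE 0.15), the survival gene BCL2L1 at -0.81 (SE 0.11) and BCL2L2 at 1.03 (SE 0.10). Counts called lower were 4 with a shALKBH5 library left out, 5 without the library labelled shCtrl replicate 1 and 6 with DESeq2 or upper-quartile scaling.

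Other genes of the m6A system were not called more often than genes at large, of which 23.4% were called higher and 23.1% lower. Of 9 genes of m6A methyltransferases and their partners 1 was called higher and 1 lower, ZC3H13 at 0.29 (SE 0.09) and METTL16 at -0.62 (SE 0.11). FTO, the other m6A demethylase, was at 29.6 to 34.2 CPM in number 1 and at 43.6 to 47.6 CPM in number 2 (0.48, SE 0.10). Of 10 readers 2 were called higher and 1 lower, with YTHDF2, which directs marked RNA to decay, at 0.39 (SE 0.08).

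**Figure D2:**
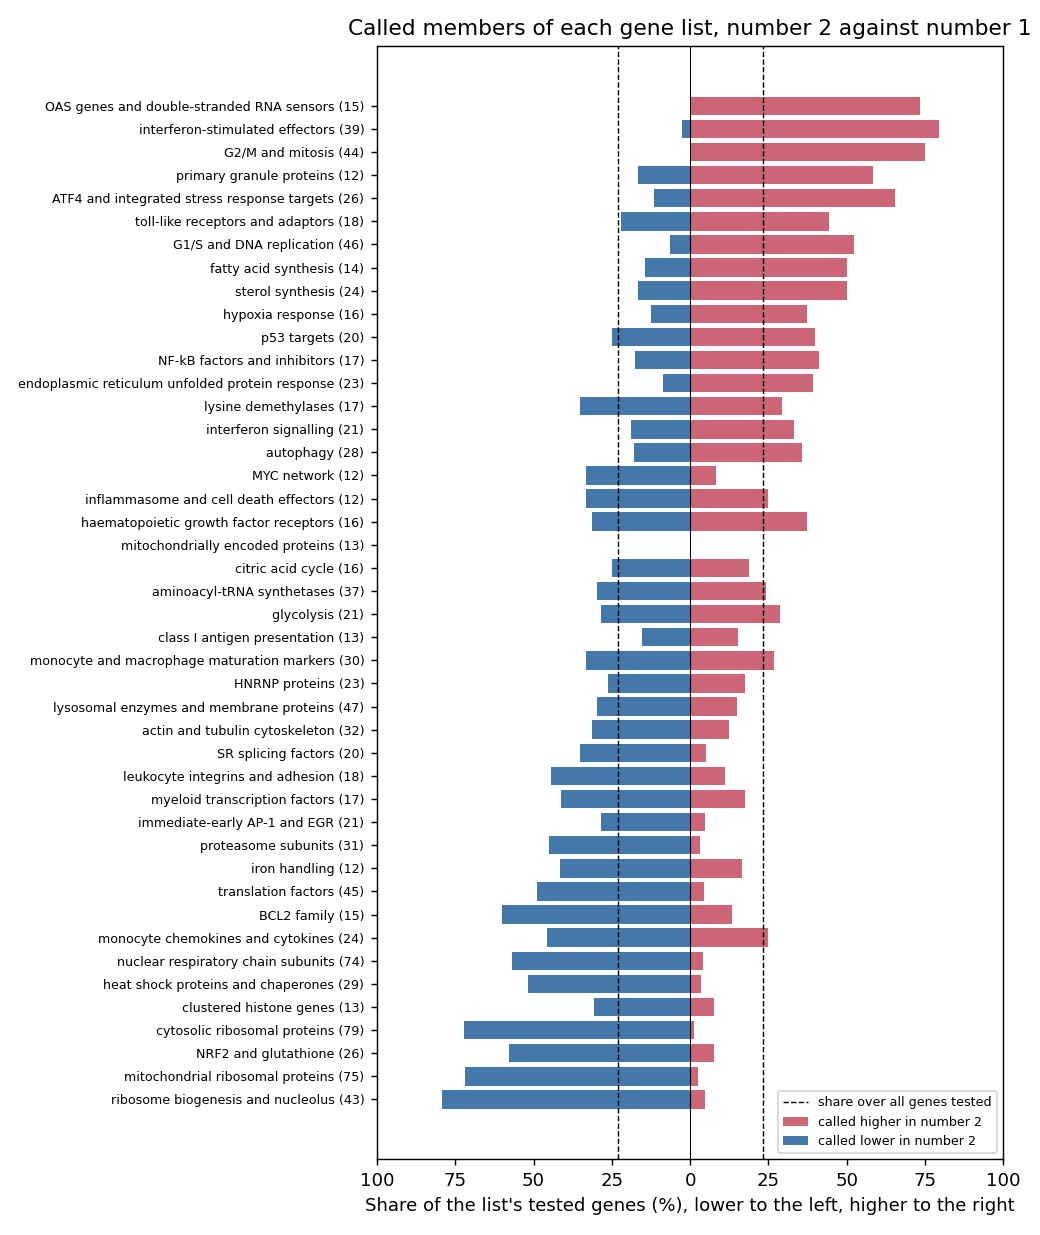
Share of each list's tested genes called higher (to the right) or lower (to the left) in number 2, for lists with at least 12 tested genes, ordered by median log2 difference; dashed lines mark the shares over all genes, 23.4% and 23.1%. The interferon, OAS and G2/M lists reach 73.3% to 79.5% higher, and the ribosome biogenesis list reaches 79.1% lower.

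Markers of other cell types were low apart from single genes. Of 15 T and NK cell markers CD2 and CD3D were at 0 in every library, and the sum was 49.6 to 57.6 TPM in number 1 and 48.4 to 52.8 TPM in number 2, most of it NKG7; TRAC, below 2 TPM in every library, was called lower (-2.87, SE 0.50). Of 9 B and plasma cell markers JCHAIN and VPREB1 were at 0, and the sums of 7.92 to 13.0 and 9.2 to 12.4 TPM overlapped, while 2 of the 3 tested were called higher, PAX5 (1.17, SE 0.19) and CD79B (0.99, SE 0.25). Of 13 erythroid and megakaryocyte markers 6 were at 0, HBB, PF4 and GP9 among them, and the sum was higher without overlap, 7.11 to 8.53 against 12.2 to 13.9 TPM, nearly all of it EPOR. Of 10 epithelial markers 4 were at 0, KRT5 and KRT18 among them, and the sum was lower without overlap, 96.5 to 123.8 against 69.5 to 94.5 TPM, nearly all of it MUC1. Of 9 fibroblast markers 3 were at 0, with sums of 4.2 to 4.77 and 3.49 to 4.23 TPM, and PDGFRA was called lower (-1.47, SE 0.27). Of 8 neuroectodermal and kidney line markers 4 were at 0, and the sum was higher without overlap, 3.74 to 4.45 against 6.27 to 7.92 TPM, with CDH2 the member called. The part of these markers in the other differences was not tested. In bulk RNA a change in the share of cells and a change in RNA per cell cannot be told apart.

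Base composition moved with part of the difference, and not alike in the 3 pairs. In the quintile of genes with the lowest GC content (32.0% to 43.6%) the median log2 difference was -0.05 in the shCtrl pair, 0.16 in the shALKBH5 pair and 0.46 in the ALKBH5 rescue pair. In the highest quintile (58.9% to 76.8%) it was 0.00, -0.08 and -0.20. Of the lowest quintile 32.5% were called higher and 11.8% lower, and of the highest 18.2% higher and 31.0% lower. The median GC content of the G2/M genes was 45.9%, that of the interferon effectors 48.1%, that of the ribosome biogenesis genes 50.4% and that of the ATF4 targets 55.8%. With GC content as an offset in the fit, an alternative added after the data were seen, 34 of 39 interferon effectors and 31 of 44 G2/M genes were called higher, and 38 of 43 biogenesis and 58 of 79 cytosolic ribosomal genes lower. The part of base composition in single differences was not tested.

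**Figure D3:**
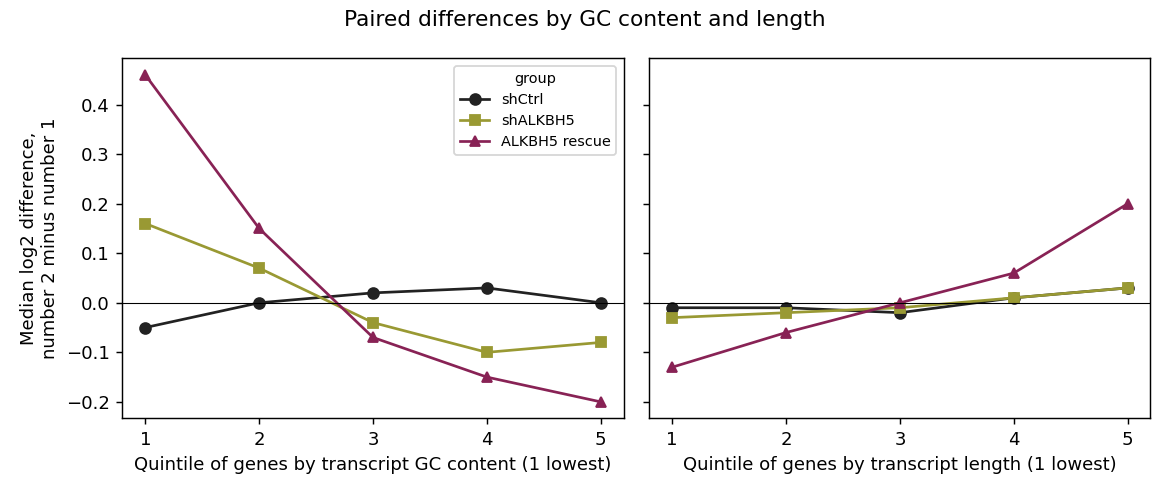
Median log2 difference (number 2 minus number 1) of the 3 pairs across quintiles of genes by transcript GC content (left) and length (right). The shCtrl pair stays within -0.05 to 0.03 over the GC quintiles, while the ALKBH5 rescue pair runs from 0.46 to -0.20.

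At the level of transcripts the edgeR fit called 1 of 52956 (0.00189%), ALKBH5-201, with a log2 difference of 6.43 (SE 0.09); 11969 had an unadjusted value below 0.05, and DESeq2 and limma-voom, run on the same transcripts after the data were seen, called 5251 and 3942. The transcript counts therefore depended on the tool, and no other transcript is named from them. Usage, the division of a gene's reads among its transcripts, was examined with edgeR's diffSpliceDGE. It called 672 of 10150 genes (6.62%), of which 381 were also called as genes. Of these, 647 had at least 5 TPM in every library. Among the 647, 89 had a transcript whose TPM share differed by at least 20 points without overlap between the numbers. Without the library labelled shALKBH5 replicate 1, 104 genes were called for usage, 66 of them among the 672, and without replicate 2, 106 and 68. Leaving out each of the other 4 libraries gave 296 to 479.

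Among genes called for usage with at least 5 TPM in every library, TIMP2 differed in its first exon. TIMP2 encodes an inhibitor of matrix metalloproteinases. Its transcript TIMP2-203, which starts within the gene (chromosome 17, 78852977 to 78874150, minus strand), held 0%, 2.54% and 1.11% of the gene's TPM in the shCtrl, shALKBH5 and ALKBH5 rescue libraries numbered 1 and 45.6%, 34.3% and 58.5% in those numbered 2. The full-length TIMP2-201, which starts at 78925387, went from 90.4% to 91.2% down to 39.3% to 64.0%. The gene's summed level was 8.99 to 10.2 TPM in number 1 and 32.4 to 34.6 TPM in number 2, so both forms were at a higher level in number 2. ANXA2R, the annexin A2 receptor gene, held 53.8% to 66.4% in ANXA2R-202 in number 1 and at most 5.83% in number 2.

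Other genes called for usage differed in the share of coding and non-coding forms, or in the division among protein-coding forms. In CCDC28B, PINLYP, LSM8 and TRMT5 the forms with the widest difference in each direction were all protein-coding. TMEM258-204, the protein-coding form of a subunit of oligosaccharyltransferase, held 46.5%, 48.7% and 56.9% in number 1 and 87.7%, 89.4% and 88.9% in number 2, while a form marked for nonsense-mediated decay held 17.2% to 23.2% and then 2.01% to 3.62%. In ACADM, the medium-chain acyl-CoA dehydrogenase gene, the protein-coding ACADM-203 held 0.238% to 3.73% in number 1 and 18.2%, 48.6% and 61.5% in number 2, with the lowest share in the library labelled shCtrl replicate 2. CCDC28B-201 went from 26.8% to 37.5% up to 66.0% to 80.1%, and the retained-intron form CCDC43-205 from 57.8% to 60.8% down to 21.7% to 37.3%. PINLYP-206 held 60.4% to 65.8% in number 1 and 12% to 24.1% in number 2. LSM8-202, TRAPPC9-204 and TRMT5-203 had lower TPM shares too, with differences of -51.1, -43.9 and -40.4 points. They are short (290, 558 and 572 bases), and by estimated counts the same differences were -7.94, -8.84 and -7.66 points.

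**Figure D4:**
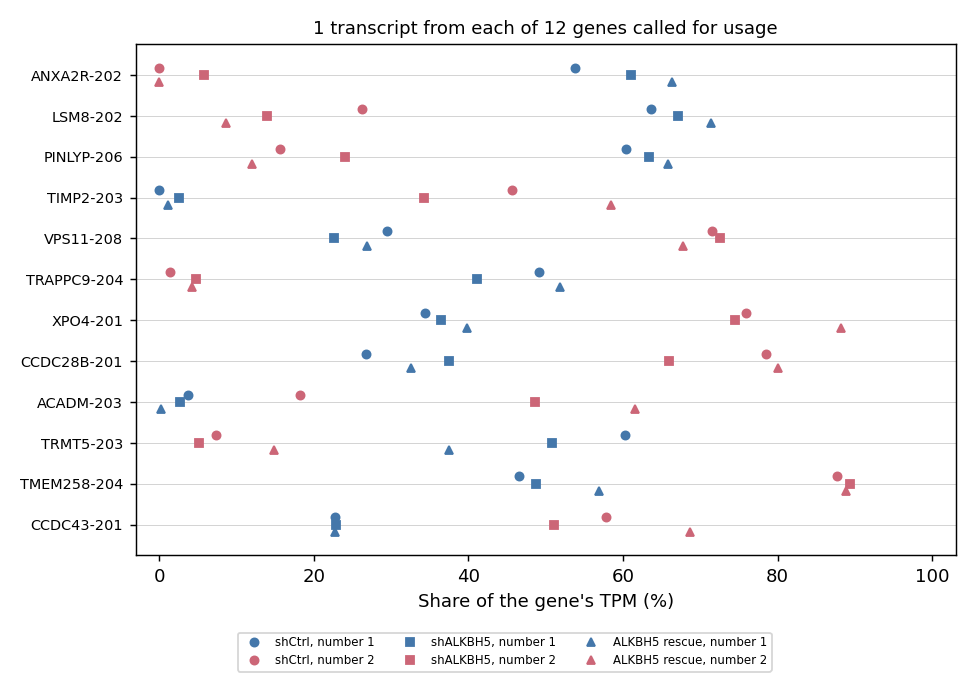
Share of the gene's TPM (%) held by 1 transcript, that with the widest difference, of each of 12 genes called for usage, 1 point per library, with groups by shape and numbers by colour. The genes were picked for a transcript whose shares did not overlap between the numbers. Lack of overlap in the 12 is therefore not a result. The plot shows the size of the gap, for TIMP2-203 0% to 2.54% against 34.3% to 58.5%.

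Over the transcriptome, retained-intron transcripts held 8.37%, 8.43% and 8.02% of TPM in number 1 and 7.87%, 7.89% and 7.97% in number 2. The groups do not overlap, but the ALKBH5 rescue pair differed by little. The counts that follow cover genes with at least 5 TPM in every library, 8374 of the 10150 tested for usage and 647 of the 672 called. Of 512 genes called for usage that have such a transcript, its share was lower in number 2 without overlap in 210 and higher in 52. Over all 5554 genes tested with such a transcript the counts were 977 and 440. The share of protein-coding transcripts went the other way, higher in 276 and lower in 67 of 643 genes called for usage, and higher in 1360 and lower in 613 of all 8267 tested. Transcripts marked for nonsense-mediated decay were lower in 107 and higher in 32 of 364 called, and lower in 489 and higher in 271 of all 4071 tested.

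XPO4, an export receptor gene, differed in the estimated shares of 2 forms that are unlike at an exon junction, printed below for both. XPO4-202 held 37.2%, 42.6% and 43.7% of the gene's TPM in number 1 and 0% in all 3 libraries of number 2. XPO4-201 went from 34.4%, 36.5% and 39.8% to 75.9%, 74.5% and 88.2%. In level XPO4-201 overlapped, at 5.55 to 7.15 TPM in number 1 and 6.85 to 8.82 TPM in number 2, while the gene was lower (-0.91). Reads over the junction were not counted, so these shares rest on kallisto's division of reads. The forms differ within the coding sequence by 3 bases at 1 exon junction, besides their ends, and the letters come from GENCODE 29 transcripts (GRCh38, chromosome 13, minus strand). Capitals mark the bases found in that form alone, at chr13:20842895-20842897 in the first and chr13:20827180-20827182 in the second.
XPO4-201: ttcttcctccaaATTtgggcagacatt
XPO4-202: ttcttcctccaaAACtgggcagacatt
In XPO4-201 the 3 bases belong to the exon before the intron, and in XPO4-202 to the exon after it. The 2 forms thus place both ends of the intron at this junction 3 bases apart. GENCODE gives XPO4-201 the tag non-canonical U12, for a U12-type intron with non-canonical splice sites. The tag does not say which intron, and its splice site letters were not examined.

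The tag led to the other genes that carry it, a set examined after XPO4 and VPS11 had been seen. Both are in it, and no count was made without them. At least 1 transcript carried this non-canonical U12 tag in 65 genes tested for usage. Of these, 20 were called (30.8%) against 652 of the other 10085 (6.47%). U12-type introns without the tag were not looked for, so the other 10085 may include genes that have them. Of 4 tags looked at, the others had 11 of 72, 1 of 32 and 36 of 531 genes called. In 18 of the 20 the share of the tagged transcripts was higher in number 2, in 16 without overlap. It was lower in 1, and the median difference was 21.2 points. Of the 647 genes called for usage with at least 5 TPM in every library, 644 had some transcript without overlap. Lack of overlap in the 20 is therefore not a result. Retained-intron transcripts had a lower share in all 15 of these genes that have one. Among all genes called for usage with such a transcript and at least 5 TPM in every library, the mean share was lower in 342 of 512 and higher in 170. Over all 65 the tagged share was higher in 44 and lower in 18, with a median of 3.9 points. It was higher without overlap in 25 and lower without overlap in 2. The retained-intron share was lower in 34 and higher in 14 of the 49 that have one. Among the 45 not called, the retained-intron share was lower in 19 and higher in 14.

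VPS11, a subunit of the complexes that tether endosomes and lysosomes, had 40.8%, 35.2% and 38.1% of its TPM in tagged transcripts in number 1 and 79.4%, 78.6% and 74.8% in number 2. ICE1, a component of the little elongation complex that serves small nuclear RNA transcription, had 56.1%, 62.3% and 60.7% against 97.9%, 95.6% and 93.4%, and its retained-intron form differed by -35.9 points. PCID2, a partner in mRNA export, had 58.6% to 64.1% against 87.5% to 89.7%, and the splicing regulator SRSF10 had 44.3% to 52.2% against 69.7% to 74.2%. SRSF10 was lower as a gene, at -0.44 (SE 0.11), and so was CRTC3, a coactivator of CREB, at -0.95, while VPS11 was at 0.32. Of 12 genes for proteins of the minor spliceosome, a list added after the data were seen, 0 were called higher and 3 lower (1 with a shALKBH5 library left out), a share near the 23.1% called lower over all genes: SCNM1 at -0.63 (SE 0.10), CCDC84 at -0.53 (SE 0.13) and SNRNP48 at -0.49 (SE 0.13). ZRSR2, which recognises the 3′ splice site of U12-type introns, was at 0.02 (SE 0.12). The small nuclear RNAs of the minor spliceosome are not polyadenylated and were not analysed here. With a shALKBH5 library left out, 4 of the 65 tagged genes were called, and 13 or 14 with any other library left out.

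**Figure D5:**
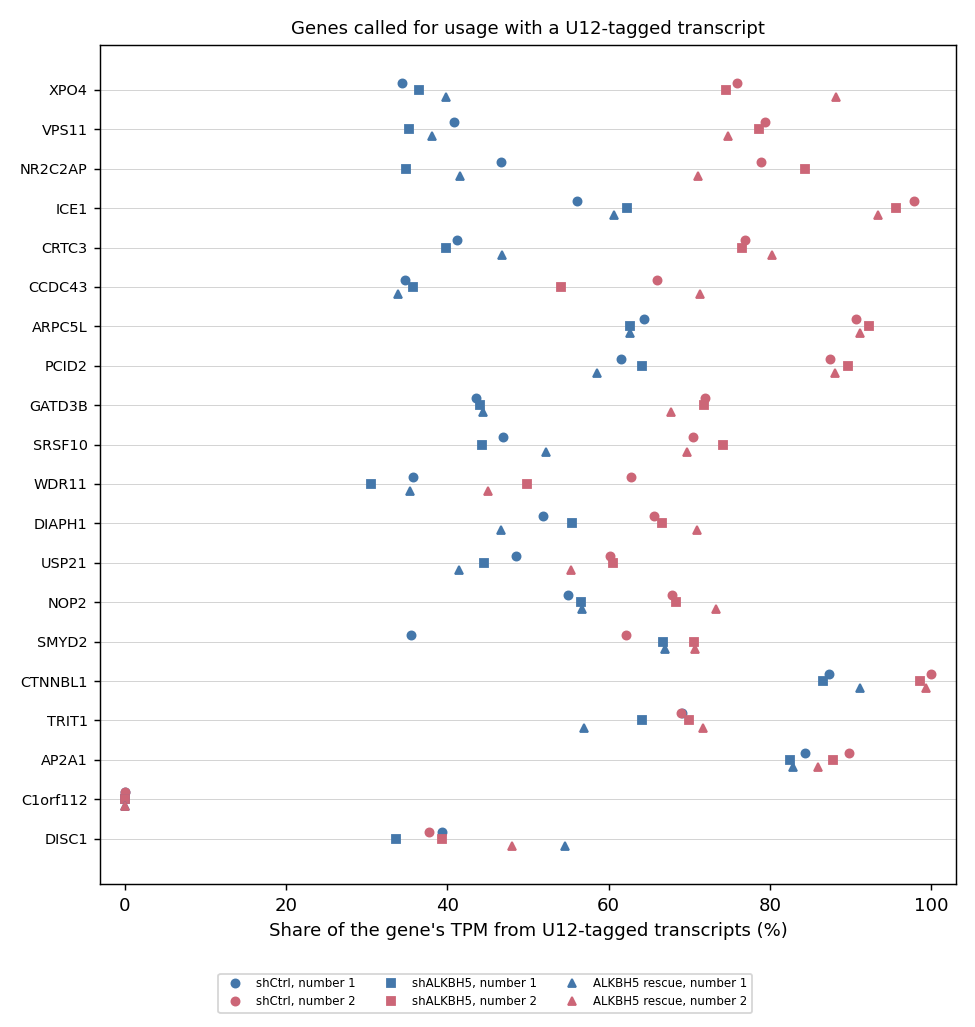
Share of the gene's TPM (%) held by U12-tagged transcripts in the 20 tagged genes called for usage, 1 point per library, with groups by shape and numbers by colour. In 16 genes, from XPO4 at the top, all 3 libraries of number 2 lie above those of number 1, and SMYD2, TRIT1, C1orf112 and DISC1 show no such separation. The genes were picked as called for usage between the numbers, so separation is not a result.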

How the data were processed

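Polyadenylated RNA of 6 THP1 libraries was measured. The submitters' processing notes name kallisto 0.43.1, CASAVA and hg38; options and strand use are not stated there, so overlapping or antisense genes cannot be told apart. Per the file headers, the deposited tables give the authors' estimated counts, TPM, length and effective length (in bases, unit other) for each of 179973 transcripts. GENCODE release 29 matched 163714 transcripts (91.0%); the unmatched held 3.13% to 3.32% of the counts and were left out. Estimated counts were summed per gene, rounded, and fitted with edgeR 4.0.16 in R 4.3.3 (TMM, filterByExpr, group and replicate number, 2 residual degrees of freedom, Benjamini-Hochberg threshold 0.05). SE was taken from the size of the log2 change and its quasi-likelihood F. CPM uses the scaled library size. TPM shares describe transcripts. GC content is that of transcripts, weighted by TPM.

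Named genes are ALKBH5, SPP1, OAS3 and IFIT2, 12 protein-coding genes per direction by size among called genes with at least 5 CPM and no overlap, up to 4 genes per list by size (those described were taken from these), 12 genes called for usage with at least 5 TPM by share difference, and genes within 1 Mb of ALKBH5. The genes named for usage were also required to have a transcript whose shares did not overlap between the numbers. ICE1, PCID2, CRTC3 and the markers of other cell types were named after their values were seen. The members, lists and rules were chosen with earlier results of these data known. Alternatives were RLE and upper-quartile scaling, other filters, DESeq2 1.42.0, limma 3.58.1 (voom, diffSplice), no group covariate, protein-coding genes only and leaving out each library; the GC offset and the tools on transcripts were added after seeing the data. The fits were tested on simulated data. Depth is 14534386 to 24857373 estimated counts per library; no molecular identifiers are mentioned. Some members of the gene lists are not reported here.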

Additional observations from a re-analysis of the deposited data

Results flagged for a closer look

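Among the named genes that were called, 2 had a shCtrl pair that moved against the other pairs, a difference between groups that was not tested. Called genes that are not named were not searched for this. Of all 6578 called genes, 6492 had the same sign in all 3 pairs. MS4A3, a granulocyte precursor gene, differed by -0.04 (log2, number 2 minus number 1) in the shCtrl pair, 0.92 in the shALKBH5 pair and 1.27 in the ALKBH5 rescue pair. HSP90B1, an endoplasmic reticulum chaperone gene, differed by -0.12, 0.65 and 0.94 in the same order. In both the value of the shCtrl pair is near 0.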

How the results depend on the processing

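No paired analysis was possible with the replicate number as the block, because that number is the term compared; the fit is instead paired by group, through the group covariate. Leaving out 1 library removes its group from the contrast and leaves 1 residual degree of freedom, so the lone sample is assumed to vary like the others. The count of genes called then ran from 3979 to 6766 (6578 with all libraries), the count past 2-fold from 1095 to 1348 (1086), transcripts called from 0 to 0 (1), and genes called for usage from 104 to 479 (672). Without the group covariate 6094 transcripts and 1309 genes for usage were called. limma diffSplice called 1271 genes for usage, 556 of them among the 672, and on transcripts limma-voom called 3942 and DESeq2 5251. The cause of these differences was not tested. The counts of genes called and past 2-fold stayed within 1.5 times under both scalings, both other filters, DESeq2 (4820 and 793), limma-voom, protein-coding genes only and the GC offset (7264 and 1007). Of the 272 named genes none reversed; 21 called genes lost their call with DESeq2 and 32 without the library labelled shALKBH5 replicate 1. Shares of transcripts rest on kallisto's division of reads, which depth limits for low transcripts.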
